A study of Mus musculus with 2 samples.

Results

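The nuclei described here are forebrain GABA nuclei with *Baiap3* transcripts, taken from single-nucleus RNA sequencing of mouse brain after subarachnoid haemorrhage (SAH). They were selected on raw counts of unique molecular identifiers (UMIs, each standing for 1 captured transcript). A nucleus was kept with 300 to 7000 genes and at least 2000 UMIs, at least 3 *Baiap3* UMIs, at least 4 UMIs summed over *Gad1*, *Gad2* and *Slc32a1*, at most 1 UMI of *Slc17a6* and *Slc17a7* together, and at most 5 UMIs of *Mobp* and *St18* together. In all, 159 of 30413 nuclei met these limits, 130 of 12204 in the Normal library and 29 of 18209 in the SAH library. The levels of these 8 genes, and the distance of the selected nuclei from other nuclei in any gene, are therefore descriptions of the choice and not findings. They had been proposed as hypothalamic-type neurons with *Baiap3*, *Gabrg1*, *Prlr*, *Gal*, *Dlk1* and *Gad2* as markers. Since the regional genes below bear this out only in part, they are called *Baiap3* GABA nuclei here.

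The study asked what SAH does to the haemorrhagic hemisphere in male mice. SAH was made by endovascular puncture and the tissue was taken 12 h later, and the comparison group is named Normal in the sample labels and sham-operated in the study's methods. The labels give an age of 6 to 8 weeks, the study's text another, and the study's methods give the strain C57BL/6J. In each group, tissue of the ipsilateral hemisphere, from the medial prefrontal cortex back to the centrolateral thalamus, was pooled from 3 mice into 1 library, so nothing separates a difference between groups from a difference between libraries, dissections or mice. The Normal library held 114970719 UMIs (median 7252.5 per nucleus) and the SAH library 172604358 (median 8151). The limits stated in the methods, on genes, UMIs, mitochondrial and haemoglobin shares, passed 12133 and 18180 nuclei. The number of nuclei that the study's text gives per group does not match these barcodes, and there the control group is the larger.

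Nuclei of 1 library are not replicates. All intervals below are exact 95% intervals that cover counting error only (Poisson for levels, Clopper-Pearson for shares, conditional binomial for log2 ratios), and no p-value is given. Between the libraries 78 barcodes recurred, among them 3 of the Normal *Baiap3* GABA nuclei and 0 of the SAH ones. Depth was alike: 12544 UMIs per *Baiap3* GABA nucleus in the Normal library (median, range 3750 to 31858) and 12834 in the SAH library (6305 to 25409), with 4119 and 4002 genes. Mitochondrial transcripts made up 0.0870% and 0.0718% of their UMIs, and haemoglobin transcripts 10 and 2 UMIs.

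BAIAP3 is a Munc13-family protein that works in dense-core vesicle traffic, the route by which neurons store and release peptides. GABA neurons of the hypothalamus, the preoptic area and the neighbouring amygdala and bed nucleus often pair GABA with peptides such as galanin or neurotensin, and read hormones through nuclear steroid receptors and through cytokine-type receptors for prolactin and growth hormone, which signal by JAK2 and STAT5. Other forebrain GABA neurons include cortical interneurons from the medial ganglionic eminence, which express *Lhx6* and *Sox6*, those from the caudal ganglionic eminence, and striatal projection neurons.

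*Baiap3* transcripts were rarer in the SAH library. Among GABA nuclei chosen by the same limits without *Baiap3*, 130 of 1789 (7.27%, interval 6.11 to 8.57) held at least 3 *Baiap3* UMIs in the Normal library and 29 of 2037 (1.42%, 0.955 to 2.04) in the SAH library. The gap ran through every count. In the Normal library 279 GABA nuclei had 1 UMI, 118 had 2, 72 had 3, 35 had 4, 12 had 5 and 11 had more, and in the SAH library 199, 83, 20, 6, 3 and 0 did. GABA nuclei themselves were 17.8% of the nuclei within the gene and UMI limits in the Normal library and 13.3% in the SAH library. Without any limit on other genes, at least 3 *Baiap3* UMIs were held by 414 nuclei (4.13%) against 138 (0.903%).

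Summed over all GABA nuclei, the *Baiap3* level was 49.1 counts per 1000000 UMIs (CPM; 46.2 to 52.3) in the Normal library and 18.6 (16.9 to 20.4) in the SAH library, a log2 ratio of −1.40 (−1.57 to −1.24), or 2.65-fold lower. In excitatory nuclei, with at least 4 UMIs of *Slc17a6* and *Slc17a7* and at most 1 of the GABA genes, it was 12.4 against 6.07 CPM, 2.05-fold lower. Oligodendrocyte nuclei, with at least 20 UMIs of *Mobp* and *St18* and at most 1 of the GABA genes, were shallow (medians 3868 and 3709 UMIs) and held 0 *Baiap3* UMIs in the Normal library, which allows up to 2.66 CPM by a limit of 3 counts, and 16 (5.06 CPM) in the SAH library. The part of free RNA in these differences was not tested.

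A marker that did not take part in the choice gave another count of nuclei. The prolactin receptor gene *Prlr* reached 3 UMIs in 8.44% (7.19 to 9.83) of GABA nuclei in the Normal library and 8.15% (7.00 to 9.42) in the SAH library. The corresponding shares were 13.0% and 13.3% for *Gabrg1*, a GABA-A receptor subunit, 20.1% and 23.2% for the growth hormone receptor gene *Ghr*, and 31.4% and 29.9% for the transcription factor gene *Zfhx3*. For these 4 genes the counting intervals of the libraries overlapped. Shares were lower in the SAH library for *Hap1*, which encodes huntingtin-associated protein 1 and is abundant in the hypothalamus (10.3% against 4.37%), and for *Dlk1*, an imprinted gene (3.52% against 1.42%), and higher for the progesterone receptor gene *Pgr* (6.54% against 9.13%). GABA nuclei with *Prlr* were thus about as frequent in both libraries, and those with *Baiap3* less frequent in the SAH library.

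**Figure D1:**
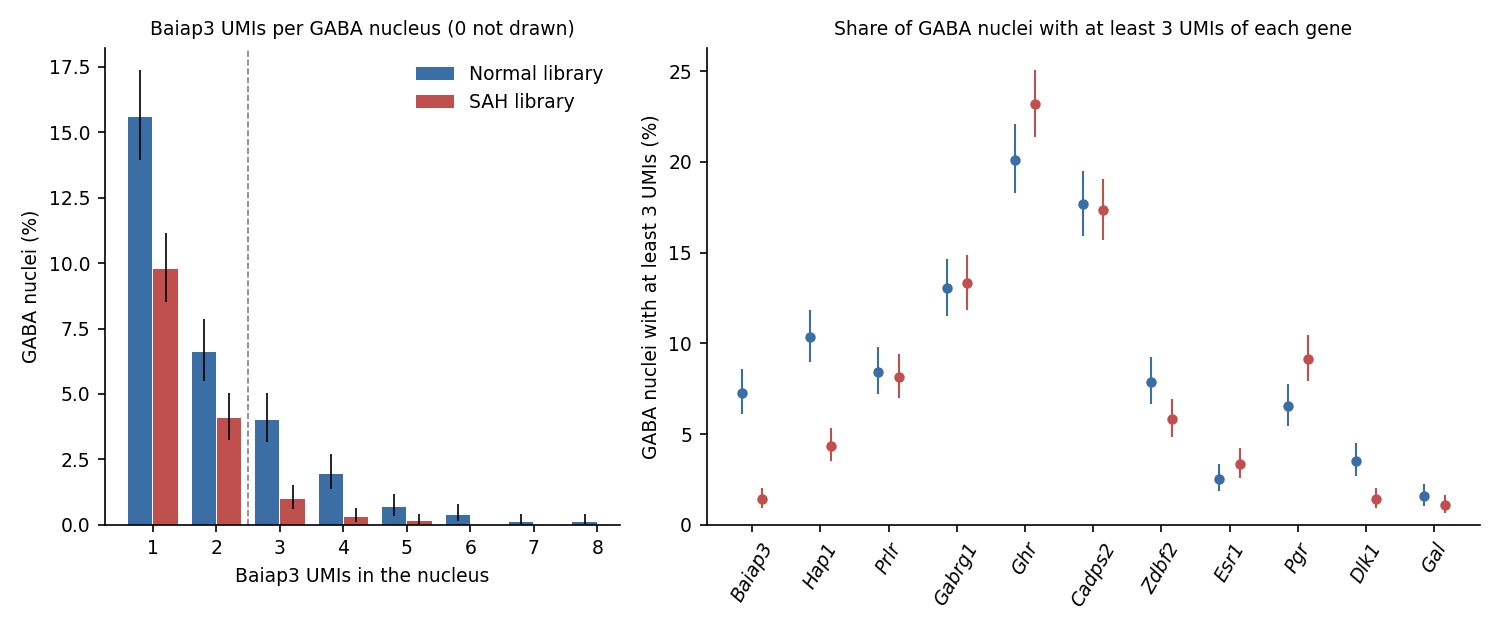
Left, percent of GABA nuclei (y axis) with 1 to 8 *Baiap3* UMIs (x axis) in the Normal (blue) and SAH (red) library; the dashed line marks the limit of 3 UMIs. Right, percent of GABA nuclei with at least 3 UMIs of each of 11 genes; bars and whiskers are exact 95% counting intervals. *Baiap3* stands at 7.27% and 1.42% in the libraries, while *Prlr* (8.44% and 8.15%) and *Gabrg1* (13.0% and 13.3%) lie side by side.

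Within GABA nuclei chosen by at least 3 *Prlr* UMIs in place of *Baiap3* (151 Normal, 166 SAH), the *Baiap3* level was 99.1 CPM (86.1 to 113) in the Normal library and 40.2 (32.4 to 49.3) in the SAH library, a log2 ratio of −1.30 (−1.67 to −0.94). Of these nuclei, 32 (21.2%) and 9 (5.42%) were also *Baiap3* GABA nuclei. The ratio was −1.49 in nuclei chosen by *Gabrg1*, −1.38 by *Zfhx3*, −1.37 by *Esr1* and −1.72 (−2.83 to −0.73) by *Isl1*, which few nuclei hold. Choosing by *Gal*, *Nts*, *Dlk1* or *Calcr*, likewise in few nuclei, gave −0.32, −0.37, −0.55 and −0.23, with intervals that all included 0. Among 5942 genes with at least 100 UMIs in the *Prlr*-chosen nuclei, 45 were lower than *Baiap3* in the SAH library relative to the Normal one, and in all GABA nuclei 72 of 13598 were. Whether fewer such neurons were sampled or each held less *Baiap3* RNA cannot be told apart from these counts, and a difference in how much of each region entered the pools was not tested.

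*Baiap3* (ENSMUSG00000047507) lies on the minus strand at chr17:25242659-25256364 in GRCm38, spans 13.7 kb and shares part of that span with *Mir3547* on the same strand and with *Tsr3* on the opposite strand. Short genes had median ratios below 0 in *Baiap3* GABA, other GABA, *Prlr*-chosen and excitatory nuclei. Among the 500 genes nearest to *Baiap3* in length (6.11 to 30.8 kb), the median log2 ratio in the *Prlr*-chosen nuclei was −0.43. The lowest 5% of them lay below −1.05, and *Baiap3* itself stood at −1.30. The part of gene length in the *Baiap3* level was not tested.

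In the Normal library, nuclei on both sides of the limit were close in *Prlr*, and in the SAH library they were not. The 72 Normal nuclei with 3 *Baiap3* UMIs held 156 CPM of *Prlr* (131 to 184) and the 118 with 2 held 149 (129 to 172). In the SAH library the 20 nuclei with 3 held 192 CPM (144 to 250) and the 83 with 2 held 105 (86.6 to 127). *Zfhx3* stood at 612 and 577 CPM in the Normal library and 674 and 478 in the SAH library. *Hap1* stood at 187 and 146 CPM, and 110 and 90.2.

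The regional picture was set against GABA nuclei with 0 *Baiap3* UMIs (1262 Normal, 1726 SAH, with medians of 9906 and 11190 UMIs), called other GABA nuclei. This class is itself chosen by *Baiap3*, and made up 70.5% of GABA nuclei in the Normal and 84.7% in the SAH library. The SAH over Normal log2 ratio of *Prlr* was 0.35 (0.19 to 0.52) in it and −0.23 (−0.34 to −0.12) over all GABA nuclei. Whether the class held the same kinds of nuclei in both libraries was not tested. Of 3669 genes with at least 100 UMIs in the *Baiap3* GABA nuclei, 60 (1.64%) were at least 2-fold higher than in other GABA nuclei in both libraries and 33 (0.899%) at least 2-fold lower. Ranked by the smaller of the 2 libraries' log2 ratios among genes with at least 200 UMIs, the order began with *Prlr* (2.26 in the Normal and 2.21 in the SAH library), *Hap1* (1.98 and 2.15), *Dpyd* (2.27 and 1.89), the non-coding *Gm28905* (1.84 and 1.82), *Cadps2*, a priming factor of dense-core vesicles (1.73 and 2.07), *Rmst*, a long non-coding RNA (1.69 and 1.76), and *Zfhx3* (1.65 and 1.64). *Zdbf2* (1.53 and 1.72), *Crim1* (1.47 and 1.61), *Tmem255a* (1.98 and 1.36), *Gm26871* (1.46 and 1.31), the glycine receptor gene *Glra3* (2.02 and 1.25), the neuroendocrine *Resp18* (1.25 and 1.37) and *Pdzrn4* (1.41 and 1.24) followed. Other GABA nuclei with at least 4 UMIs of *Drd1*, *Drd2*, *Adora2a* and *Rgs9* together are called striatal-type nuclei (71 Normal, 98 SAH). There *Gm28905* stood at 458 and 344 CPM, against 376 and 405 CPM in *Baiap3* GABA nuclei. *Gm26871* stood at 885 and 1029 CPM there, against 1124 and 1359 CPM. The other genes named here were lower in striatal-type nuclei in both libraries.

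*Gad2*, a gene of the rule, was found in 127 of 130 and 29 of 29 nuclei, whereas the 4 proposed markers outside the rule were each absent from many. *Prlr* was found in 64 of 130 Normal nuclei (49.2%; up to 18 UMIs) and 17 of 29 SAH nuclei (58.6%; up to 17), against 12.6% and 15.4% of other GABA nuclei and 1.54% and 2.02% of the oligodendrocyte nuclei. *Gabrg1* was found in 78 of 130 (60%) and 16 of 29 (55.2%), against 23.9% and 29.1%, and 2.56% and 3.70%. *Dlk1* was found in 23.1% and 27.6%, and galanin, *Gal*, in 13.1% and 17.2%, against 2.46% and 1.85% of other GABA nuclei. Thinned to 2000 UMIs each, the shares were 22.3% and 31.0% for *Prlr* (5.07% and 6.43% in other GABA nuclei), 23.8% and 20.7% for *Gabrg1* (9.11% and 10.7%), 7.69% and 10.3% for *Dlk1*, and 6.15% and 13.8% for *Gal*. At least 3 UMIs of *Prlr*, *Gabrg1*, *Gal* or *Dlk1* occurred in 71 Normal (54.6%) and 16 SAH (55.2%) nuclei, so that the 4 markers left many nuclei without a clear count.

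Transcription factors that pattern the hypothalamus were scarce. Of 19 such genes, 0 had 100 UMIs in the *Baiap3* GABA nuclei, and 9, among them *Nkx2-4*, *Six6*, *Hmx3*, *Fezf1*, *Nr5a1*, *Foxb1*, *Barhl1* and *Rax*, had 0 UMIs in either library, which allows up to 1.74 CPM in the Normal and 7.89 CPM in the SAH library (3 counts each). The list summed to 129 UMIs (74.6 CPM, 62.3 to 88.7) in the Normal and 22 (57.8 CPM, 36.2 to 87.6) in the SAH library, above the 31.7 and 23.5 CPM of other GABA nuclei and the 5.33 and 4.43 CPM of oligodendrocyte nuclei. *Isl1*, a LIM factor of hypothalamic and striatal neurons, supplied 65 and 13 of them, *Six3* 30 and 1, *Nkx2-1* 11 and 2, *Sim1* 7 and 5, and *Otp* 4 and 0. *Isl1* had at least 1 UMI in 39 of 130 (30%) and 7 of 29 (24.1%) *Baiap3* GABA nuclei. It was found in 7.84% and 8.17% of other GABA nuclei, 18.3% and 16.3% of striatal-type nuclei and 0 of the oligodendrocyte nuclei. Thinned to equal depth as for the markers, the *Isl1* shares were 8.46% and 6.90% of *Baiap3* GABA nuclei. They were then 7.04% and 3.06% of striatal-type nuclei and 1.82% and 2.43% of other GABA nuclei. The 7 midbrain and pretectal GABA genes together gave 13 and 1 UMIs.

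Telencephalic genes were present beside them. The 8 telencephalic transcription factors summed to 459 and 381 CPM, below the 614 and 522 CPM of other GABA nuclei, with *Foxp1*, which many forebrain neurons express, as the most abundant (309 and 244 CPM). The 8 Dlx family genes and cofactors summed to 390 and 528 CPM, against 549 and 512 CPM, with *Meis2* the most abundant. *Meis2* was uneven, with at least 3 UMIs in 24 of 130 and 10 of 29 nuclei. The median was 0 and the highest counts were 48 and 35 UMIs.

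Of 7 genes of medial ganglionic eminence interneurons 4 had at least 100 UMIs, and of these *Nxph1* (−1.39 and −2.97 against other GABA nuclei), *Sst* (−1.22 and −2.27) and *Sox6* (−1.57 and −1.07) were at least 2-fold lower in both libraries, against 0.899% of all genes. The lowest genes of the ranking were *Zfp536* (−2.01 and −2.69), *Tcf4* (−2.22 and −1.95), *Kcnmb2* (−1.90 and −2.21) and *Erbb4* (−1.68 and −1.70). A further limit of at least 5 UMIs of *Lhx6* and *Sox6* together, which marks interneurons of the medial ganglionic eminence, was met by 21 Normal (16.2%) and 5 SAH (17.2%) nuclei. A limit of at least 4 UMIs of *Drd1*, *Drd2*, *Adora2a* and *Rgs9*, which marks striatal projection neurons, was met by 7 (5.38%) and 1 (3.45%). Either was met by 28 (21.5%) and 6 (20.7%), a like share in both libraries, and *Zfhx3* reached 3 UMIs in 8 and 2 of those, but in 81 and 21 of all *Baiap3* GABA nuclei. The caudal ganglionic eminence gene *Adarb2* was held by 74 of 130 and 16 of 29 nuclei, at 1398 and 1627 CPM, and the list of 8 such genes summed to 1507 and 1719 CPM against 2386 and 2676 in other GABA nuclei. Of the 7 reticular thalamic genes, *Klhl1* stood at 171 and 166 CPM (log2 ratio to other GABA nuclei 1.17 and 0.89) and *Esrrg* at 262 and 313 CPM (−0.99 and −0.89). In the SAH library 29 of the 63 *Klhl1* UMIs lay in 1 nucleus, without which it stood at 94.2 CPM, against 89.3 CPM in other GABA nuclei. Of 10 central amygdala and bed nucleus genes 3 had at least 100 UMIs. Of these *Nts* (2.63 and 4.37) and *Dlk1* (1.86 and 3.55) were at least 2-fold higher in both libraries, against 1.64% of all genes, and *Sst*, which is on this list too, was lower. These lists do not place the nuclei in a single region.

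**Figure D2:**
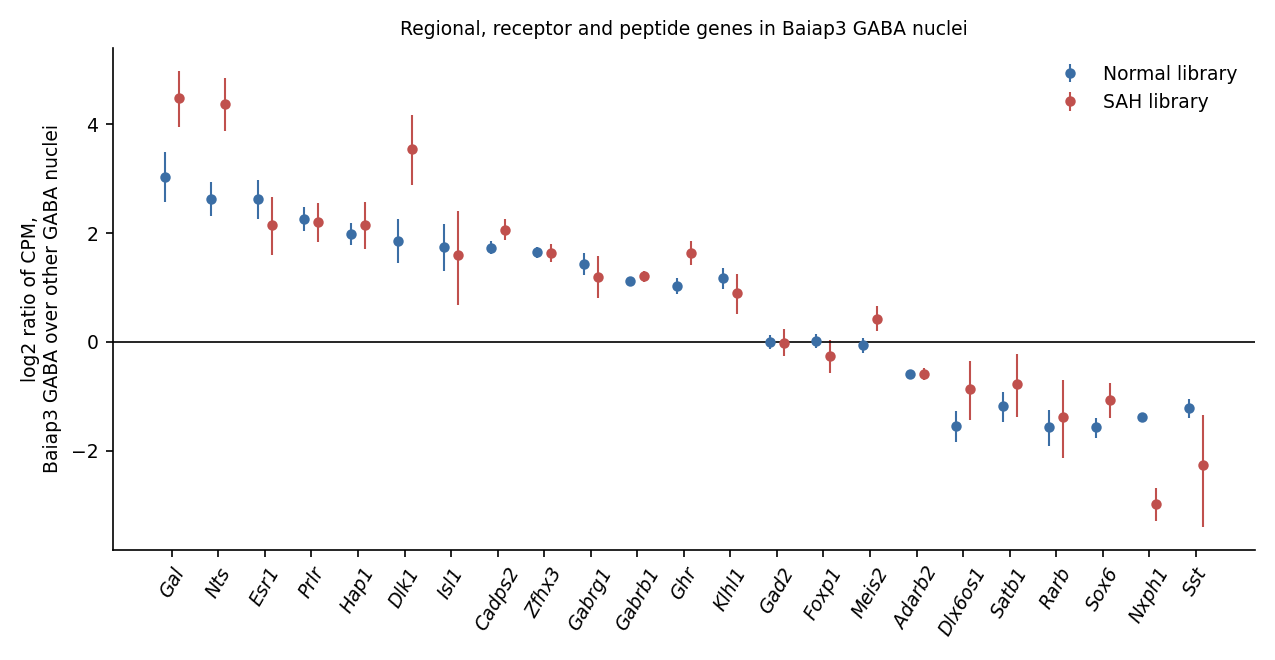
Log2 ratio of CPM, *Baiap3* GABA nuclei over other GABA nuclei (y axis), for 23 regional, receptor and peptide genes in the Normal (blue) and SAH (red) library, with exact 95% counting intervals. *Prlr*, *Hap1*, *Cadps2* and *Zfhx3* lie above 1 in both libraries and *Sox6*, *Nxph1* and *Sst* below −1; *Gad2*, a gene of the rule, lies at 0.

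Markers of other cells had few UMIs. Oligodendrocyte genes other than the 2 of the rule summed to 100 and 89.4 CPM, against 118 and 80.3 CPM in other GABA nuclei and 17185 and 9112 CPM in oligodendrocyte nuclei. The 7 astrocyte genes gave 129 and 13 UMIs (74.6 and 34.2 CPM), nearly all of them *Slc1a2* with 123 and 10, of which 21 lay in 1 Normal nucleus. The 7 microglia genes gave 139 and 31 UMIs (80.4 and 81.5 CPM), led by *P2ry12* with 86 and 22. Oligodendrocyte precursor genes gave 19 and 6 UMIs, endothelial genes 4 and 1, vascular and leptomeningeal genes 2 and 0, ependymal and tanycyte genes 27 and 13, and excitatory genes outside the rule 36 and 9. The 5 endothelial genes other than *Pecam1* had 0 UMIs in both libraries.

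Of 47 receptor genes, 13 had at least 100 UMIs, and *Prlr*, *Esr1* and *Ghr* were among those at least 2-fold higher than in other GABA nuclei in both libraries. *Ghr* was found in 58.5% of Normal and 75.9% of SAH *Baiap3* GABA nuclei, but also in 70.4% and 68.4% of striatal-type nuclei. Thinned to equal depth as for the markers, the *Ghr* shares were 26.2% and 34.5%, against 23.9% and 24.5% of striatal-type nuclei. Striatal-type nuclei held *Prlr* in 4.23% and 5.10% and *Esr1* in 4.23% and 13.3%. *Esr1*, the oestrogen receptor alpha gene, had 117 UMIs in 33 Normal nuclei (67.7 CPM) and 33 in 14 SAH nuclei (86.7 CPM), with log2 ratios of 2.62 and 2.15. Both *Prlr* and *Esr1* reached 3 UMIs in 9 Normal and 2 SAH nuclei. The calcitonin receptor gene *Calcr* was confined to few nuclei, 9 of 130 (32 UMIs) and 4 of 29 (27 UMIs), and so was the leptin receptor gene *Lepr*, with 10 and 3 nuclei. Of 23 genes of the JAK-STAT pathway, which carries the prolactin signal, 8 had 100 UMIs. The kinase gene *Jak2* stood 0.55 and 0.75 log2 units above other GABA nuclei and *Stat5b* 0.46 and 0.34, while *Cish*, a feedback inhibitor, had 1 and 0 UMIs.

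Among the GABA-A receptor subunits, *Gabrg1* (1.43 and 1.20), *Gabrb1* (1.12 and 1.21) and *Gabra5* (1.08 and 1.62) were at least 2-fold higher than in other GABA nuclei, and *Gabra2* (0.72 and 0.93) and *Gabra3* (0.82 and 0.70) also lay above 0. *Gabrq*, the rare theta subunit, had 35 and 9 UMIs and ratios of 2.79 and 3.52. *Gad2* was level (0.00 and −0.01) and *Gad1* lower (−1.14 and −1.18), although both belong to the rule.

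Neuropeptides were shared out between nuclei, few of which held the same one. Of 36 peptide genes 5 had at least 100 UMIs, and at least 3 UMIs of any of 13 peptides occurred in 55 of 130 Normal nuclei (42.3%) and 10 of 29 SAH nuclei (34.5%). Neurotensin, *Nts*, had 145 UMIs in 21 Normal nuclei and 50 in 6 SAH nuclei, and 50 of the Normal UMIs lay in 1 nucleus. *Gal* had 82 UMIs in 17 Normal nuclei (at most 14 in 1 nucleus) and 46 in 5 SAH nuclei, 37 of them in 1 nucleus that also held 18 of the 19 SAH UMIs of vasopressin, *Avp*. In the Normal library 1 nucleus held 38 of 90 *Cartpt* UMIs, 1 held 35 of 41 *Vip* UMIs, and 1 held all 11 *Hcrt* UMIs. *Vip* and *Hcrt* had 0 UMIs in the SAH library, which allows up to 7.89 CPM by the limit of 3 counts. *Gal* and *Prlr* reached 3 UMIs together in 2 Normal nuclei and 0 SAH nuclei, and *Nts* and *Gal* in 2 and 1. *Agrp* had at least 1 UMI in 33.8% and 44.8% of nuclei but also in 27.8% and 26.7% of other GABA nuclei. Only 3 and 2 nuclei held at least 3 UMIs of it, and thinned to 2000 UMIs the shares were 10% and 3.45%, against 5.55% and 6.08% of other GABA nuclei.

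**Figure D3:**
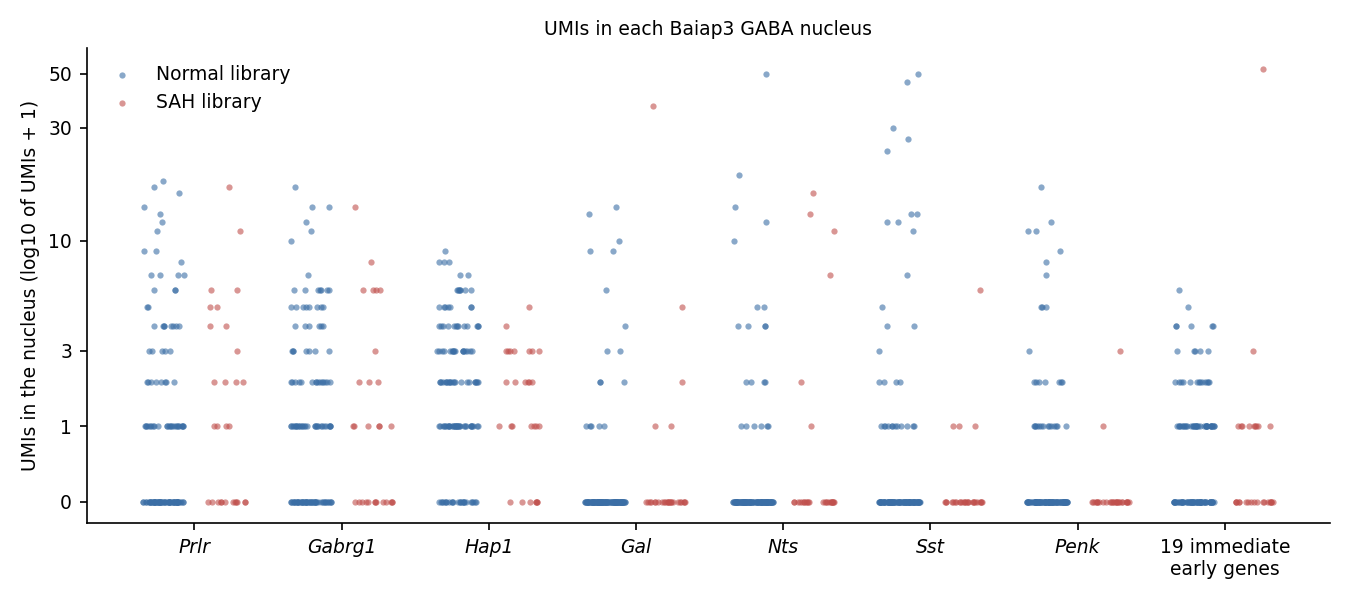
UMIs of 7 genes, and of 19 immediate early genes summed, in each *Baiap3* GABA nucleus (y axis, log10 of UMIs + 1, labelled in UMIs), Normal library blue and SAH library red; each point is 1 nucleus, spread sideways at random. *Hap1* is spread over most nuclei, *Gal* and *Nts* over few, and 1 SAH nucleus alone holds 52 immediate early UMIs.

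Between the libraries, 40 of the 3669 genes (1.09%) were at least 2-fold higher in the SAH library and 153 (4.17%) at least 2-fold lower in *Baiap3* GABA nuclei. These counts depend on the minimum, which is met mostly by UMIs of the 130 Normal nuclei: with no minimum 1840 were higher and 1750 lower. Centred on the median gene 58 were higher and 113 lower, and centred on the 500 genes nearest in length 59 and 78. The median gene stood at −0.10 on the log2 scale, against −0.07 in other GABA nuclei and −0.10 in *Prlr*-chosen nuclei. A gene at the minimum of 100 UMIs would have 18.0 of them in the SAH library with no difference, so folds near the minimum carry wide intervals.

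The peptide genes *Sst* and *Penk* were the lowest of the listed genes. Somatostatin, *Sst*, had 281 UMIs in 31 of 130 Normal nuclei (163 CPM, up to 50 per nucleus) and 9 UMIs in 4 of 29 SAH nuclei (23.7 CPM, up to 6). Of these UMIs, 183 Normal and 6 SAH ones lay in nuclei that met the *Lhx6* and *Sox6* limit. Without those nuclei *Sst* stood at 69.7 against 9.59 CPM. The log2 ratio of *Sst* was −2.78 (−3.92 to −1.84), with −1.73 in other GABA nuclei and −1.80 in *Prlr*-chosen nuclei, so it was lower in these classes too. In striatal-type nuclei *Sst* was higher in the SAH library (0.62, 0.12 to 1.14). Enkephalin, *Penk*, had 121 UMIs in 32 nuclei (70.0 CPM) and 4 in 2 nuclei (10.5 CPM). Its log2 ratio was −2.74 (−4.63 to −1.34), with −0.72 in other GABA nuclei and −1.02 in *Prlr*-chosen nuclei. *Gal* was higher (47.4 against 121 CPM, 1.35, 0.80 to 1.89), but without the nucleus with most *Gal* UMIs in each library it was 39.6 against 24.7 CPM. *Nts* stood at 83.9 against 131 CPM (0.65, 0.15 to 1.12) and *Npy* at 50.3 against 39.4 (−0.35, −1.25 to 0.45). In the SAH library 12 of the 15 *Npy* UMIs lay in 1 nucleus, and in the Normal library 25 of 87. Without the nucleus with most *Npy* UMIs in each library it was 36.1 against 8.17 CPM. Over the 5 peptide genes with at least 100 UMIs, 1 was at least 2-fold higher and 2 lower, against 1.09% and 4.17% of all genes, with a median of −0.35.

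Over 13 receptor genes the median was 0.23, against −0.10 over all genes, and 1, *Pgr*, was at least 2-fold higher (1.09% of all genes were). *Pgr* had 130 UMIs in 61 Normal nuclei (75.2 CPM, at most 8 per nucleus) and 64 in 18 SAH nuclei (168 CPM), 21 of them in 1 nucleus. Its log2 ratio was 1.16 (0.71 to 1.60), with 0.28 in other GABA nuclei and −0.06 in *Prlr*-chosen nuclei. Without the nucleus with most *Pgr* UMIs in each library it stood at 71.4 against 119 CPM, less than 2-fold apart. *Ghr* stood at 259 against 484 CPM (0.90, 0.64 to 1.15), the mu opioid receptor gene *Oprm1* at 113 against 200 CPM (0.82, 0.42 to 1.21) and the mineralocorticoid receptor gene *Nr3c2* at 257 against 402 CPM (0.65, 0.37 to 0.91). *Prlr* (156 against 192 CPM, 0.30, −0.10 to 0.67) and *Esr1* (67.7 against 86.7, 0.36, −0.25 to 0.93) had intervals that included 0. The 8 JAK-STAT genes with 100 UMIs had a median of 0.00 and none passed 2-fold, with *Jak2* at 0.02 (−0.60 to 0.60) and *Stat5b* at −0.50 (−1.15 to 0.09). The glucocorticoid receptor gene *Nr3c1* stood at −0.15 (−0.68 to 0.36).

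Dense-core vesicle genes, the machinery to which BAIAP3 belongs, had a median below that of all genes. Of 22 with at least 100 UMIs besides *Baiap3*, 0 were at least 2-fold higher and 3 lower, against 1.09% and 4.17% of all genes, with a median of −0.46 against −0.10. The median was −0.11 when each nucleus was thinned to 2000 UMIs, −0.17 with at least 5 *Baiap3* UMIs, −0.23 with at least 3 per 10000 UMIs and −0.27 when centred on genes of like length. In other GABA nuclei it was −0.34 and in *Prlr*-chosen nuclei −0.42. The 3 lower genes were *Ptprn*, a vesicle membrane protein gene (312 against 124 CPM, −1.34, −1.80 to −0.90), *Pcsk1n*, an inhibitor of prohormone convertase 1 (281 against 124, −1.18, −1.65 to −0.75), and *Unc13a*, which encodes Munc13-1 (113 against 49.9, −1.18, −1.95 to −0.50). *Resp18* stood at 284 against 160 CPM (−0.82, −1.23 to −0.44), the granin gene *Scg2* at 301 against 192 (−0.65, −1.03 to −0.30) and *Chga* at 120 against 73.6 (−0.71, −1.33 to −0.14). Others stood above 0, with *Cadps2* at 0.49 (0.27 to 0.71), *Pcsk2*, a prohormone convertase, at 0.53 (0.25 to 0.81) and *Rab3c* at 0.42 (0.20 to 0.64). *Pam*, which amidates peptides, stood at −0.47 (−0.73 to −0.22) and *Cadps* at −0.29 (−0.46 to −0.13), while *Cpe* (0.00) and *Syt1* (−0.02) were level.

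**Figure D4:**
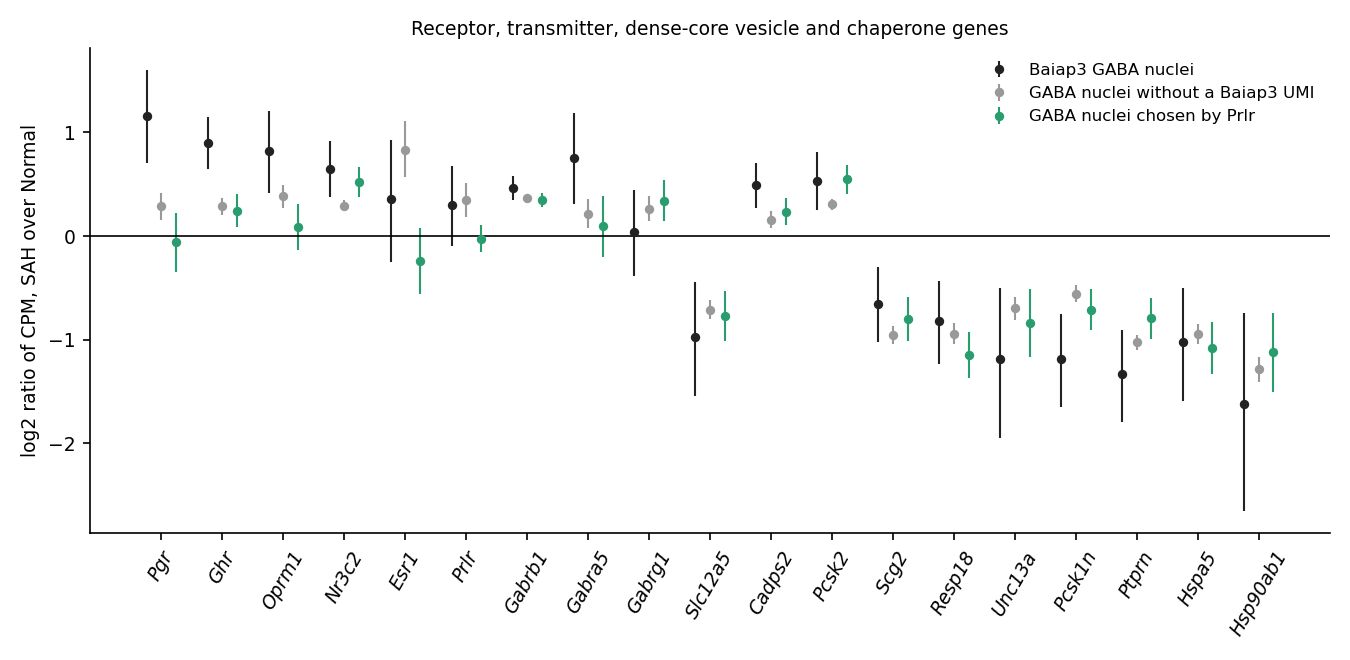
Log2 ratio of CPM, SAH over Normal library (y axis), for 19 genes in *Baiap3* GABA nuclei (black), GABA nuclei without a *Baiap3* UMI (grey) and GABA nuclei chosen by *Prlr* (green), with exact 95% counting intervals. *Pgr*, *Ghr* and *Oprm1* lie higher in black than in the other classes; *Ptprn*, *Resp18*, *Hspa5* and *Hsp90ab1* lie below 0 in all 3.

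Of 4 genes of the chaperone and stress list with at least 100 UMIs, *Hspa5*, the chaperone of the endoplasmic reticulum (176 against 86.7 CPM, −1.02, −1.59 to −0.50), and *Hsp90ab1* (89.1 against 28.9 CPM, −1.62, −2.66 to −0.74) were at least 2-fold lower, against 4.17% of all genes, and the median was −0.91, with −1.04 in other GABA nuclei and −1.16 in *Prlr*-chosen nuclei. Of 19 GABA genes outside the rule 0 passed 2-fold in either direction, and the median was 0.14. *Gabra5* stood at 94.9 against 160 CPM (0.76, 0.31 to 1.19) and *Gabrb1* at 1569 against 2161 (0.46, 0.35 to 0.57). The chloride extruder gene *Slc12a5* stood at 165 against 84.1 CPM (−0.97, −1.55 to −0.44). The vesicular GABA transporter gene *Slc32a1*, a gene of the rule, stood at 121 against 55.2 CPM, and at 156 against 87.5 CPM in other GABA nuclei.

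Among 20 glutamate receptor genes 2 were at least 2-fold higher (1.09% of all genes were), *Grm3* (139 against 302 CPM, 1.12, 0.79 to 1.45) and *Grm8* (522 against 1054 CPM, 1.01, 0.84 to 1.18), and 0 lower, with a median of 0.13. *Grm3* stood at 0.16 in other GABA nuclei and at −0.28 in *Prlr*-chosen nuclei, and 29 of its 115 SAH UMIs lay in 1 nucleus. Without the nucleus with most *Grm8* UMIs in each library, *Grm8* stood at 501 against 939 CPM, less than 2-fold apart. Of 32 voltage-gated channel genes 0 passed 2-fold, with a median of −0.07. Of 7 clock genes 1 was lower (4.17% of all genes were), *Nr1d2* (53.2 against 26.3 CPM, −1.02, −2.13 to −0.07; 0.99 when thinned), and the median was −0.11. The glucocorticoid target *Sgk1* stood at −0.55 (−1.32 to 0.16). The 2 late activity genes with 100 UMIs, *Scg2* and *Vgf* (−0.99, −1.98 to −0.12), had a median of −0.82, with −1.44 in other GABA nuclei.

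Immediate early genes rested on 1 nucleus. The 19 genes without *Homer1* had 108 UMIs over the 130 Normal nuclei (62.5 CPM, 51.3 to 75.4), with at most 6 in a nucleus. In the SAH library they had 64 (168 CPM), of which 52 lay in 1 nucleus of 25409 UMIs, the deepest of the 29, and 12 in the other 28 nuclei (33.8 CPM). That nucleus held 10 *Egr3*, 7 *Npas4*, 6 *Egr1*, 6 *Nr4a3* and 2 *Fos* UMIs. Other GABA nuclei stood at 75.5 CPM in the Normal and 33.3 CPM in the SAH library, so that without the 1 nucleus both classes were lower in the SAH library.

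Of all genes with at least 200 UMIs outside the rule, the 10 lowest in the SAH library were *Sst*, *AC149090.1* (612 against 142 CPM, −2.11), the amino acid transporter gene *Slc38a2* (124 against 31.5, −1.98), the transcription factor gene *Dach1* (130 against 36.8, −1.82), *Nxph1* (686 against 239, −1.52), *Rif1* (110 against 39.4, −1.48), the deubiquitinase gene *Usp33* (148 against 55.2, −1.42), the chaperone gene *Hsp90b1*, which was not on the chaperone list (255 against 97.3, −1.39), *Ptprn* and the RNA-binding *Pcbp2* (179 against 71.0, −1.33). In other GABA nuclei *AC149090.1* (−1.49), *Slc38a2* (−1.25), *Hsp90b1* (−0.99) and *Pcbp2* (−0.88) were lower too, whereas *Dach1* (0.29) and *Nxph1* (0.07) were not. *Dach1* was found in only 36 of 130 Normal and 4 of 29 SAH nuclei. *Nxph1* was uneven, with 226 of 1185 Normal UMIs in 1 nucleus and 41 of 91 SAH UMIs in 1. *AC149090.1* was not found in the annotation used here.

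The 10 highest were *AY036118* (85.1 against 321 CPM, 1.91), *Greb1l*, a relative of an oestrogen-regulated gene (179 against 505, 2.82-fold), the non-coding *Gm48091* (78.1 against 208, 1.41), *Zswim6* (83.9 against 189, 1.17), *Sorbs2os* (90.8 against 200, 1.14), *Grm3*, *A330015K06Rik* (94.9 against 202, 1.09), the ephrin receptor gene *Epha3* (84.5 against 179, 1.08), *Gm26691* (218 against 447, 1.04) and the synaptic scaffold gene *Cnksr2* (241 against 489, 1.02). *AY036118* (1.75), *Gm48091* (1.25), *Sorbs2os* (1.48), *A330015K06Rik* (0.96) and *Gm26691* (0.82) were also higher in other GABA nuclei. *Greb1l* stood at 0.38 there and at 0.39 in *Prlr*-chosen nuclei. *Greb1l* had at least 1 UMI in 89 of 130 and 22 of 29 nuclei, with medians of 1 and 3. It was uneven in the SAH library, where single nuclei held 28, 27, 26, 25, 19 and 15 of its 192 UMIs. Of the 72 SAH UMIs of *Zswim6*, 28 lay in 1 nucleus. *Sorbs2os* is named as antisense to *Sorbs2*, and *AY036118* is 923 bases long.

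The ratio moved with gene length. In 5 bins of about equal size of the 3667 genes with a length, from a median of 22.3 kb to one of 363 kb, the median log2 ratio in *Baiap3* GABA nuclei was −0.39, −0.21, −0.12, −0.02 and 0.12. It was −0.36 to 0.16 in other GABA nuclei, −0.40 to 0.13 in *Prlr*-chosen nuclei and −0.30 to 0.12 in excitatory nuclei. Of the named genes, *Sst*, *Penk*, *Ptprn*, *Pcsk1n*, *Hspa5* and *Hsp90ab1* fell in the shortest bin and *Ghr*, *Oprm1*, *Grm8* and *Cadps2* in the longest, as did *Pam*, *Dach1* and *Nxph1*. The part of gene length in these results was not tested.

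**Figure D5:**
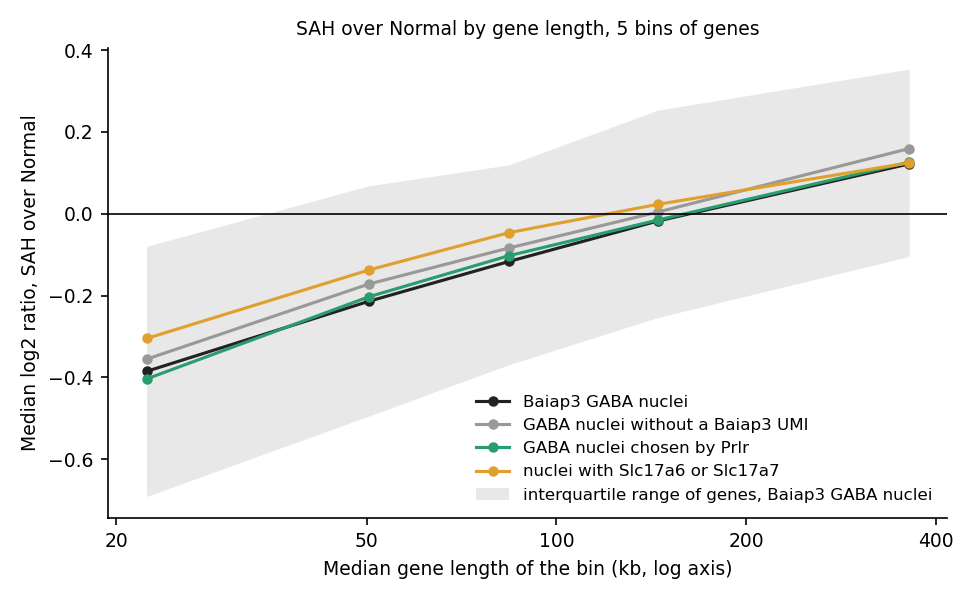
Median log2 ratio, SAH over Normal library (y axis), against the median gene length of 5 bins of 3667 genes (x axis, kb, log scale) in 4 classes of nuclei; the shaded band is the interquartile range of genes in *Baiap3* GABA nuclei. All 4 lines run from below 0 for short genes (−0.39 in *Baiap3* GABA nuclei) to above 0 for the longest (0.12).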

How the data were processed

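Nuclei were profiled with the 10x Genomics 3′ v3.1 kit. The authors aligned the reads to mm10 with introns counted and deposited raw UMI counts per gene and nucleus (32285 genes). The matrix headers name Cell Ranger 6.1.2 and the submitters' processing notes 5.0.0. For each class of nuclei, the deposited UMI counts were added per gene and divided by all UMIs of the class to give CPM and log2 ratios, with genes under 100 UMIs left out (Python 3.11.15, scipy 1.17.1). With 1 library per group no test was run. No doublet caller was run, and doublets were limited by the selection and a stricter alternative. Gene lengths and positions came from GENCODE (GRCm38). The ratio calculation was tested on simulated data.

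Named were the marker and rule genes, the most abundant and 2-fold different members of 31 gene lists, and the extremes of each ranking. *Gabra2*, *Gabra3*, *Gabra5*, *Gabrq*, *Slc12a5*, *Jak2*, *Cish*, *Calcr*, *Lepr*, *Avp* and other genes outside this rule were chosen after their values were seen. Some genes of the lists are not reported here. Members and lists were chosen with earlier results of these data known.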

Additional observations from a re-analysis of the deposited data

Results flagged for a closer look

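In 7 of 102 named genes the log2 ratio of the SAH over the Normal library lay on one side of 0 in *Baiap3* GABA nuclei and on the other in GABA nuclei without a *Baiap3* UMI, with neither counting interval reaching 0. The same held for 74 of 3665 genes with at least 100 UMIs (2.02%), and the named genes were partly picked for their values. The difference was not tested, since there is 1 library per group. The second class is also chosen by *Baiap3*, and its share of GABA nuclei differed between the libraries. *Dach1* stood at −1.82 in *Baiap3* GABA nuclei and 0.29 in the others. It was found in few nuclei, with 225 UMIs in 36 of 130 Normal nuclei (up to 32) and 14 in 4 of 29 SAH nuclei. *Nxph1* stood at −1.52 against 0.07, with 226 of its 1185 Normal UMIs in 1 nucleus. *Glra3*, the glycine receptor subunit gene, stood at −0.57 against 0.20, *Pam*, which amidates peptides, at −0.47 against 0.05, *Cadps*, a priming factor of dense-core vesicles, at −0.29 against 0.04, and the potassium channel gene *Kcnh7* at −0.24 against 0.27. *Nts* went the other way, at 0.65 against −1.09, with 16 of its 50 SAH UMIs and 50 of its 145 Normal UMIs each in 1 nucleus.

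In *Prlr*-chosen nuclei, which share members with the first class, *Dach1* stood at −1.50 and *Nts* at −0.46, whereas *Nxph1* (0.19), *Glra3* (0.15), *Pam* (0.13), *Cadps* (0.10) and *Kcnh7* (0.18) stood above 0.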

How the results depend on the processing

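No paired analysis was possible because each group has 1 library. At least 2 *Baiap3* UMIs gave 248 Normal and 112 SAH nuclei (13.9% and 5.50% of GABA nuclei), at least 5 gave 23 and 3 (1.29% and 0.147%), at least 3 per 10000 UMIs gave 5.09% in the Normal library, leaving out nuclei that also met the *Lhx6* and *Sox6* or striatal limits gave 5.70%, and *Prlr* in place of *Baiap3*, an alternative added after seeing the data like the one before it, gave 166 SAH nuclei (8.15%). The *Prlr* ratio to other GABA nuclei was 1.98 in the Normal library with at least 5 UMIs and 1.62 in the SAH library with at least 2.

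The 40 genes higher in the SAH library became 69 with at least 2 UMIs, 107 with *Prlr*, 178 when thinned to 2000 UMIs per nucleus, 108 with a minimum of 50 UMIs per gene, 6 with 300, 1840 with none and 190 at 1.5-fold. The 153 lower became 84 with at least 5 UMIs, 84 per 10000, 78 when centred on the 500 genes nearest in length, 520 thinned, 527, 14 and 1750 with those minimums, and 545 at 1.5-fold. The median of all genes was 0.00 when centred on all genes or on length and 0.014 with 300 UMIs. The dense-core median of −0.46 was −0.17 with at least 5 UMIs, −0.23 per 10000, −0.29 with stricter doublet limits, −0.35 without the *Lhx6*, *Sox6* or striatal nuclei, −0.36 without the nucleus with most immediate early UMIs, −0.35 centred on all genes, −0.27 centred on length, −0.35 as a mean over nuclei, −0.11 thinned and −0.29 with 300 UMIs.

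Values changed side as follows: with at least 5 UMIs *A330015K06Rik* (−0.66), *Sorbs2os* (−0.80) and *Gal* (−0.030), with *Prlr* *Gal* (−1.03), *Grm3* (−0.28), *Nxph1* (0.19) and *Pgr* (−0.062), thinned *Nr1d2* (0.99) and per 10000 *Zswim6* (−0.021). The cause was not tested. Of 31 named genes past 2-fold, those still past it in the same direction were 12 with *Prlr*, 11 with at least 2 UMIs, 20 of 30 when centred on length and 31 with at least 4000 UMIs or the study's own limits. With 29 SAH nuclei, depth limits every ratio of a gene near 100 UMIs.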

Other observations

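Imprinted genes, a list of 36 drawn up after their values were seen, stood above other GABA nuclei in some members. Of 23 with at least 100 UMIs, *Zim1* (log2 ratio 2.88 in the Normal and 2.40 in the SAH library), *Dlk1* (1.86 and 3.55), *Zdbf2* (1.53 and 1.72) and *Nnat* (1.27 and 1.86) were at least 2-fold higher in both libraries, against 1.64% of all genes. *Usp29*, a neighbour of *Zim1* in the *Peg3* domain, stood at 1.07 and 0.94, *Gnas* at 0.97 and 1.24 and *Grb10* at 0.97 and 1.01. *Meg3* (−0.05 and −0.07), *Peg3* (−0.13 and −0.15), *Rian* (0.06 and 0.20) and *Snhg14* (−0.04 and −0.05) were near 0. Between the libraries 0 of the 23 passed 2-fold in *Baiap3* GABA nuclei, and their median was 0.11.

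*Hap1* and *Resp18*, which were higher in *Baiap3* GABA nuclei than in other GABA nuclei, were also lower in the SAH library over all GABA nuclei: *Hap1* at 73.5 against 38.3 CPM and *Resp18* at 162 against 73.8 CPM. In excitatory nuclei they stood at 45.0 against 21.6 CPM and 54.8 against 34.1 CPM. Both are short genes, of 8.80 kb and 6.22 kb.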
